A study of Mus musculus with 8 samples.

Results

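Forkhead transcription factor genes were examined through the acetylated chromatin around them. A region was a member when the authors' file named a Fox gene (Fox, a letter from a to s, a number) as nearest and gave a distance of at most 100 kb to the transcription start site (TSS). Of 112137 regions in the table, 268 met the rule, and they belonged to 34 Fox genes. The farthest member, a Foxn3 region, lay 98847 bases from the TSS and had 5.98 in formative DKO, 8.53 in formative WT, 6.90 in naive DKO and 6.10 in naive WT cells. The nearest region left out, also at Foxn3, lay at 102251 bases and had 4.98 in formative DKO, 5.89 in formative WT, 6.09 in naive DKO and 6.33 in naive WT cells. A further 58 Fox regions lay beyond the limit.

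The series profiled H3K27ac, the acetyl mark on lysine 27 of histone H3 that active enhancers and promoters carry, in mouse embryonic stem cells by CUT&Tag, in which an antibody-guided transposase tags the marked chromatin. The groups were formative DKO, formative WT, naive DKO and naive WT cells, with 2 libraries each that were grown and prepared separately. DKO cells carry knockouts of both MLL3 and MLL4, the enhancer-linked H3K4 methyltransferases encoded by Kmt2c and Kmt2d, and no cell line is named for them, whereas the WT cells are labelled R1. Formative cells, which model the stage between ground-state pluripotency and lineage choice, had been without LIF and 2i for 63 hours, and naive cells carry no treatment label. The table holds 1 pooled value per group, log2(value + 1), with no SD or n, so a difference that involves DKO cells has no replicate check. The 1 replicated test deposited is DiffBind, for formative against naive WT cells, and its p-values measure the spread between 2 libraries a group. Differences between pooled values are called higher or lower at 2-fold (1 on the log2 scale). In bulk material, fewer cells carrying the mark and less mark in each cell cannot be told apart.

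Forkhead factors share a winged-helix DNA-binding domain that recognises a short core, and several can bind sites within closed chromatin. Their activity is set by signalling: AKT phosphorylation moves FOXO proteins out of the nucleus, and Nodal signalling brings SMAD proteins to FOXH1. In embryonic stem cells Foxd3, Foxo1, Foxh1 and an alternatively spliced form of Foxp1 are known for roles in pluripotency or in its exit.

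Sequence at the regions with the smallest adjusted p of 5 Fox genes is shown because these regions carry a state difference in WT cells: those at Foxd3 and Foxn2 fell in formative cells, and those at Foxp1, Foxk1 and Foxp2 rose. Regions of Foxc1, Foxo3 and Foxf2 had a smaller adjusted p than those of Foxk1 and Foxp2 and are not shown. Those of Foxc1 and Foxo3 hold no forkhead core and that of Foxf2 holds 1. Capitals mark the forkhead core TGTTTAC, or GTAAACA where it lies on the other strand. Each stretch has 101 bases of the plus strand of GRCm38 (mm10), centred on a core or, for Foxd3, whose region holds none, on the midpoint. The stretches are chr4:99637053-99637153 for Foxd3, chr17:88466744-88466844 for Foxn2, chr6:99439939-99440039 for Foxp1, chr5:142416403-142416503 for Foxk1 and chr6:14900919-14901019 for Foxp2.
Foxd3: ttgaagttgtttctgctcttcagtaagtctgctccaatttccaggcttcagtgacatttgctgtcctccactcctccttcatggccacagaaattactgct
Foxn2: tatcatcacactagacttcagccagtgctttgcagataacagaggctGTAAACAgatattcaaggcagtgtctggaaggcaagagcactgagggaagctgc
Foxp1: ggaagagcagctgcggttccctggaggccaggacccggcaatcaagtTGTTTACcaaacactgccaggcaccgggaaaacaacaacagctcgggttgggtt
Foxk1: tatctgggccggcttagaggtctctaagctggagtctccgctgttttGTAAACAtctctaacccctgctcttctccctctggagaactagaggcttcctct
Foxp2: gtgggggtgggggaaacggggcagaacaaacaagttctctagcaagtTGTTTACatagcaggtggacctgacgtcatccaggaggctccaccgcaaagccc
The core, on either strand, was present in the central 300 bases of 10 of the 268 Fox regions (3.73%) and of 4.11% of all regions. The cores printed above lie outside the central 300 bases of their regions and are not in this count. It was found in 6 of the 89 Fox regions that rose and in 2 of the 30 that fell, where 4.77% and 3.58% of all such regions held it. It was found in 2 of the 149 Fox regions that were not called, where 4.03% of all such regions held it. These are matches of letters, not measured binding.

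The Foxo3 and Foxk2 promoters, from RefSeq on GRCm38, are shown because each lies inside an acetylated promoter region whose values are given with its gene. Capitals mark CpG dinucleotides, of which Foxo3 (chr10:42276646-42276945, minus strand) has 35 and Foxk2 (chr11:121259737-121260036, plus strand) has 59, both printed 5′ to 3′.
Foxo3: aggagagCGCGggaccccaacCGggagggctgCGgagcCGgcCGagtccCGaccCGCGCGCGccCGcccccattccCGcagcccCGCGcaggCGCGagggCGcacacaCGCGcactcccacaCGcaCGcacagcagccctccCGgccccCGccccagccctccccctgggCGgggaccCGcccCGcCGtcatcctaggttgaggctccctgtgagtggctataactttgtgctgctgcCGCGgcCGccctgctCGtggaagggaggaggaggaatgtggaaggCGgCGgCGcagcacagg
Foxk2: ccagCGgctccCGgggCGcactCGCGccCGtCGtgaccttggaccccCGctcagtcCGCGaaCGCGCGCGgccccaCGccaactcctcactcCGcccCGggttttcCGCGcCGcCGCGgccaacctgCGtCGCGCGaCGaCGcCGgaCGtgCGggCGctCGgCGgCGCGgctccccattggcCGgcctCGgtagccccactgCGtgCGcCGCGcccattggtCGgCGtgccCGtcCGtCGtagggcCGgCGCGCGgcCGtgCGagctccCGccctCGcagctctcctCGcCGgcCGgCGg
The 24 RefSeq promoters matched to 21 of the 34 Fox genes held a median of 23.5 CpGs, against 7 over all 32851 promoters of the same length. A forkhead core lay in 1 of the 24, that of Foxa1 (4.17%), and in 3.65% of all promoters.

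In WT cells most Fox genes had regions that gained acetylation in the formative state. By the authors' deposited table, with DiffBind calls at adjusted p under 0.05, 89 of the 268 Fox regions rose (33.2%), where 20.8% of all regions did, and 30 fell (11.2%), where 15.8% of all regions did. The regions that rose had a median log2 fold of 2.62 in the authors' deposited table (3.04 over all regions that rose), and those that fell had a median of -2.30 (-1.98 over all that fell). By gene, 21 had regions that rose and none that fell, 5 had regions that fell and none that rose (Foxa1, Foxd3, Foxf2, Foxj3, Foxn2), 4 had both (Foxc1, Foxk2, Foxo3, Foxp1) and 4 had no region past the threshold (Foxa3, Foxi1, Foxm1, Foxr1). The same gene counts over all genes were not computed, and a gene with more regions has more chances of a call. Read concentration moved with the shares of regions that rose and fell, and 5 classes of it were compared. In the lowest class 25 of 61 Fox regions rose (41.0%) and 2 fell, where 37.6% and 1.97% of all regions did. In the 3 middle classes 21.3% to 29.6% of Fox regions rose, where 16.7% to 17.3% of all regions did. In the highest class 21 of 47 Fox regions rose (44.7%) and 15 fell, where 15.2% and 45.0% of all regions did.

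The pooled values, compared over the 247 Fox regions above 0 in all 4 groups (31 genes), put 135 regions at least 2-fold higher in formative than naive WT cells (background 38.1%) and 35 lower (background 18.9%), with a median difference of 1.25 beside 0.48 over all regions. In DKO cells 49 were at least 2-fold higher in the formative state (background 16.6%) and 47 lower (background 17.9%), and the median was 0.13 beside -0.07. Across the 247 regions the state difference in DKO cells correlated with that in WT cells at r = 0.37, and across all 105643 regions at r = 0.23, as a description of regions that share libraries. Of the 75 Fox regions that rose in WT cells and were above 0 throughout, 21 were at least 2-fold higher and 5 lower in formative than naive DKO cells, and the median difference was 0.43 in DKO, 2.38 in WT cells. Of the 30 that fell, 0 were at least 2-fold higher and 11 were lower in DKO cells, and the median difference was -0.70 in DKO, -2.35 in WT cells. The WT medians are those the regions were picked by, and over all regions called in WT the medians were 0.31 in DKO and 2.59 in WT for those that rose, -0.60 in DKO and -2.0 in WT for those that fell.

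**Figure D1:**
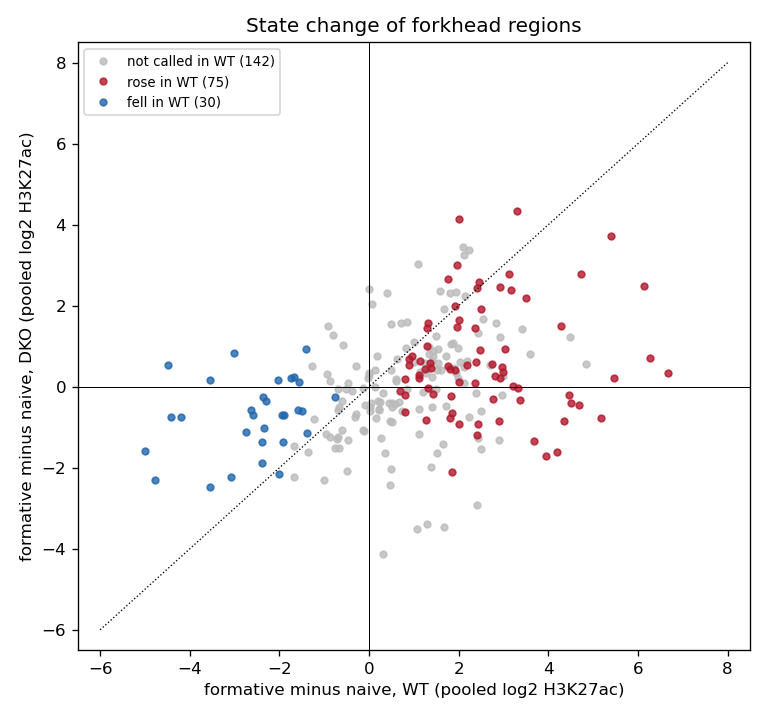
State difference (formative minus naive) of pooled log2 H3K27ac in DKO cells (vertical axis) against WT cells (horizontal axis), 1 point per Fox region above 0 in all 4 groups, coloured by the authors' DiffBind call in WT, with a dotted line where both are equal. Most of the 75 regions that rose in WT lie under the line and most of the 30 that fell lie above it.

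Between genotypes, Fox regions were mostly lower in DKO cells in the formative state. In formative cells 15 Fox regions were at least 2-fold higher in DKO than WT (background 11.2%) and 118 lower (background 39.3%), with a median of -0.95 beside -0.63 over all regions. In naive cells 54 were higher in DKO (background 19.2%) and 57 lower (background 26.3%), with a median of -0.10, as over all regions. The signed state difference (formative minus naive) was at least 2-fold higher in DKO than WT at 40 regions (background 19.5%) and lower at 101 (background 36.3%), with a median of -0.79 beside -0.39. Because the sign is kept, a loss that was weaker in DKO cells counts as higher and a weaker gain as lower. Quantile normalization of the 4 columns moved the all-region median of the formative DKO against WT difference by 0.88 and took the Fox median to -0.02, so its size depends on the scaling. It was below 0 under each scaling tried. No Fox gene had a median at least 2-fold higher in formative DKO than WT cells, and 14 of 31 had one at least 2-fold lower. The share over all genes was not computed, and 39.3% of all single regions were lower by that much. Among the 14, the medians of Foxa3, Foxp3, Foxr1, Foxr2 and Foxs1 each rest on 1 region.

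Chromosome moved with this result. All regions of chromosome 6 had a median DKO against WT difference of -1.01 in formative and -0.48 in naive cells, and those of chromosome 8 -1.15 and -0.45, where the other autosomes ran from -0.69 to -0.28 in formative and from -0.16 to 0.15 in naive cells. Chromosome 6 holds 72 of the 247 Fox regions (Foxi3, Foxj2, Foxm1, Foxp1, Foxp2), with a median of -1.38 in formative DKO against WT cells. On autosomes other than 6 and 8, 165 Fox regions had a median of -0.55 beside -0.54 over all regions there, and 36.4% of them were at least 2-fold lower beside 36.7%. On X, 4 Fox regions had a median of -2.69 beside -0.71 over all X regions. RNA of chromosome 6 genes had a median DKO against WT difference of 0.18 in formative and 0.03 in naive cells in the authors' deposited table. The part of chromosome in the acetylation differences was not tested.

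**Figure D2:**
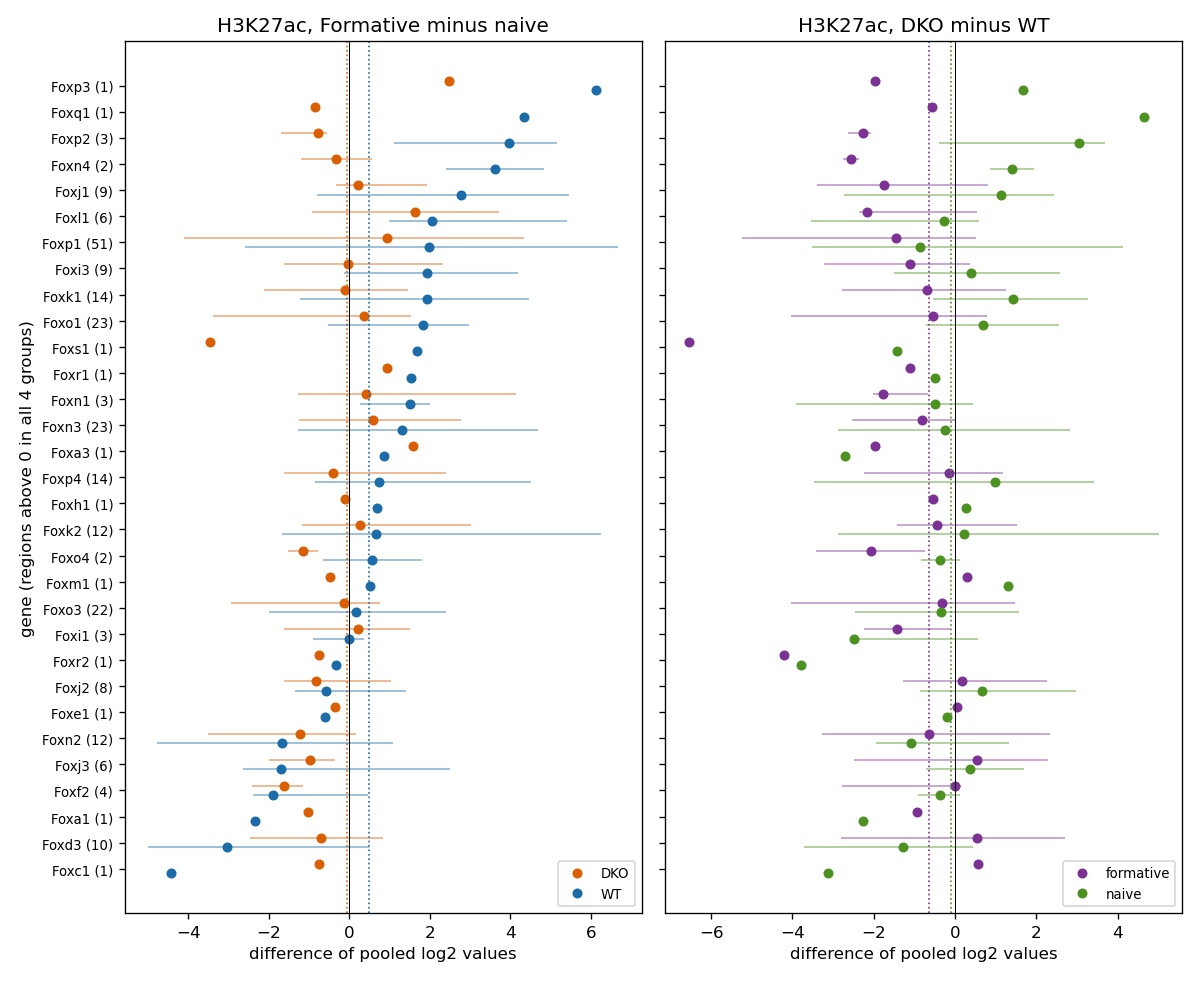
Median difference of pooled log2 H3K27ac over each Fox gene's regions (points) with the range over its regions (lines), for formative minus naive (left: DKO, WT) and DKO minus WT (right: formative, naive), and dotted lines at the median of all regions. Genes run by their WT state difference, from Foxp3 at 6.13 to Foxc1 at -4.43, and the DKO state differences lie nearer 0 for most genes.

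Foxd3, a factor required in the epiblast and in neural crest, lost acetylation across its neighbourhood in formative WT cells. All 10 of its regions were intergenic, and 8 of them fell. The broadest of these, chr4:99634849-99639357, had 5.04 in formative DKO, 4.53 in formative WT, 7.51 in naive DKO and 8.09 in naive WT cells, with a log2 fold of -3.56 by DiffBind in the authors' deposited table, adjusted p = 1.05e-35. In naive DKO cells this region kept a value near that of naive WT cells, and both formative groups were low. The region nearest the TSS, chr4:99649953-99651311, had 6.44 in formative DKO, 5.17 in formative WT, 8.68 in naive DKO and 8.24 in naive WT cells and fell in WT cells, with a log2 fold of -3.27 by DiffBind in the authors' deposited table, adjusted p = 5.15e-06.

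Elsewhere at Foxd3 the naive DKO level was itself low. The region at chr4:99668423-99671983 had 4.30 in formative DKO, 3.73 in formative WT, 5.04 in naive DKO and 7.93 in naive WT cells. At chr4:99673841-99675418 the levels were 6.68 in formative DKO, 6.10 in formative WT, 5.85 in naive DKO and 9.10 in naive WT cells. The most distal one, chr4:99569396-99570636, had 5.53 in formative DKO, 4.22 in formative WT, 5.0 in naive DKO and 8.70 in naive WT cells, which gave it the largest excess of DKO over WT state difference among Fox regions above 0 in all groups, 5.01. All of them fell in WT cells. Naive DKO was below naive WT at 9 of the 10 Foxd3 regions, and formative DKO was below formative WT at 3. The narrow region chr4:99631340-99632160 had 6.64 in formative DKO, 3.95 in formative WT, 8.24 in naive DKO and 8.94 in naive WT cells, and its formative DKO excess over formative WT of 2.69 was the largest among Fox regions. The median state difference over Foxd3 regions was -0.71 in DKO and -3.04 in WT cells.

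RNA at Foxd3 had another order of groups. RNA levels in the authors' deposited table, from libraries outside the series and on a log2 scale with an unstated unit, were 5.49 in formative DKO, 5.41 in formative WT, 3.19 in naive DKO and 4.70 in naive WT cells. Foxd3 RNA was thus lower in naive DKO than naive WT cells and close in both formative groups.

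**Figure D3:**
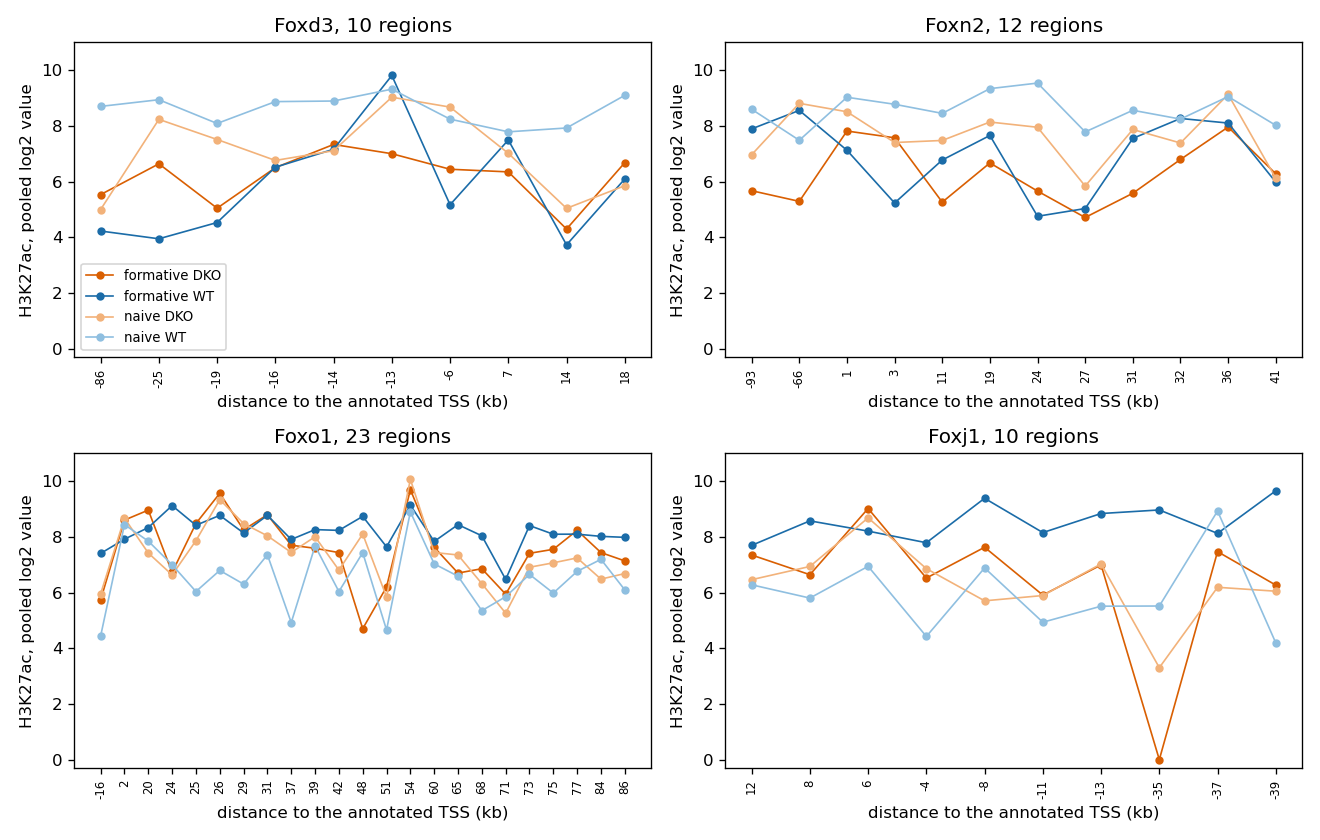
Pooled log2 H3K27ac of every region of Foxd3, Foxn2, Foxo1 and Foxj1 in the 4 groups, ordered along each locus, with the distance to the annotated TSS in kb on an axis that is not to scale. Naive WT values are above formative WT values at 9 of the 10 Foxd3 regions and below them at 9 of the 10 Foxj1 regions, and 1 Foxj1 region is listed at 0 in formative DKO cells.

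Foxh1, the DNA-binding partner of SMAD2 and SMAD3 in Nodal signalling, had 1 region, an exonic one close to its TSS, with 6.18 in formative DKO, 6.71 in formative WT, 6.29 in naive DKO and 6.01 in naive WT cells. It rose in WT cells by little, with a log2 fold of 0.62 by DiffBind in the authors' deposited table, adjusted p = 0.0376. In DKO cells the state difference was -0.11. The table gives no RNA value for Foxh1.

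Foxi3, a gene of otic and pharyngeal development, had 13 intergenic or gene-end regions, of which 6 rose and 0 fell. The nearest, chr6:70960576-70961939, had 4.54 in formative DKO, 7.76 in formative WT, 6.15 in naive DKO and 3.56 in naive WT cells, and it rose in WT cells, with a log2 fold of 4.28 by DiffBind in the authors' deposited table, adjusted p = 0.000397. Its order was turned round in DKO cells, where the naive value was the higher. At chr6:71048690-71049096 the values were 8.05 in formative DKO and 10.00 in formative WT cells, and both naive groups were listed at 0 (adjusted p = 0.00133 by DiffBind in the authors' deposited table). Another region, chr6:71035508-71035937, was listed at 0 in naive WT cells and had 7.97 in naive DKO cells. Between them, chr6:71040235-71041518 had 8.13 in naive WT cells and did not pass the test (a log2 fold of 0.13 by DiffBind in the authors' deposited table, adjusted p = 0.889).

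Foxp1, which is needed for B-cell, heart and neuronal development and whose stem cell isoform regulates pluripotency genes, had the most members, 55 regions along its gene. Of these, 24 rose and 2 fell, and the median state difference over the 51 above 0 was 0.93 in DKO and 1.98 in WT cells. The region with the smallest adjusted p, chr6:99437861-99441269, had 5.37 in formative DKO, 7.25 in formative WT, 5.10 in naive DKO and 4.45 in naive WT cells (a log2 fold of 2.96 by DiffBind in the authors' deposited table, adjusted p = 1.47e-16). The largest gain among its regions above 0 in all groups, at chr6:98965225-98966648, had 6.01 in formative DKO, 8.23 in formative WT, 5.67 in naive DKO and 1.56 in naive WT cells, so that only naive WT cells were low (a log2 fold of 7.46 by DiffBind in the authors' deposited table, adjusted p = 3.71e-09). Close to an annotated TSS, chr6:99027263-99029052 had 8.11 in formative DKO, 7.59 in formative WT, 5.79 in naive DKO and 7.19 in naive WT cells, and it did not pass the test (a log2 fold of 0.64 by DiffBind in the authors' deposited table, adjusted p = 0.216).

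The 2 Foxp1 regions that fell lie in introns, and the Foxp1 regions next to each of them did not pass the test. The first, chr6:99240223-99241617, had 6.89 in formative DKO, 7.48 in formative WT, 5.95 in naive DKO and 8.88 in naive WT cells. The second, chr6:99378391-99380404, had 7.09 in formative DKO, 6.67 in formative WT, 7.79 in naive DKO and 9.27 in naive WT cells, with a log2 fold of -2.41 by DiffBind in the authors' deposited table, adjusted p = 5.18e-11. Both had their highest value in naive WT cells.

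In DKO cells 23 Foxp1 regions were at least 2-fold higher in the formative state and 4 were lower. Formative DKO was below formative WT at 49 of 51 regions and at least 2-fold below at 41, and naive DKO was below naive WT at 41. All of these lie on chromosome 6, with the medians given above. The region chr6:99088077-99089549 had 4.68 in formative DKO, 7.17 in formative WT, 0.34 in naive DKO and 3.86 in naive WT cells, the largest state difference in DKO cells among Fox regions above 0 in all groups, 4.34. That difference rests on a naive DKO value near 0, the lowest the scale allows. At chr6:99327172-99328065, another intronic region, the levels were 5.68 in formative DKO, 7.99 in formative WT, 2.31 in naive DKO and 5.75 in naive WT cells. The opposite extreme of these regions, chr6:99399134-99400194, had 2.22 in formative DKO, 7.46 in formative WT, 6.33 in naive DKO and 7.14 in naive WT cells, a DKO state difference of -4.12. Foxp1 RNA was 7.12 in formative DKO, 6.98 in formative WT, 2.94 in naive DKO and 3.82 in naive WT cells in the authors' deposited table. The formative RNA level was thus nearly the same in both genotypes while most of the gene's regions were less acetylated in DKO cells.

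**Figure D4:**
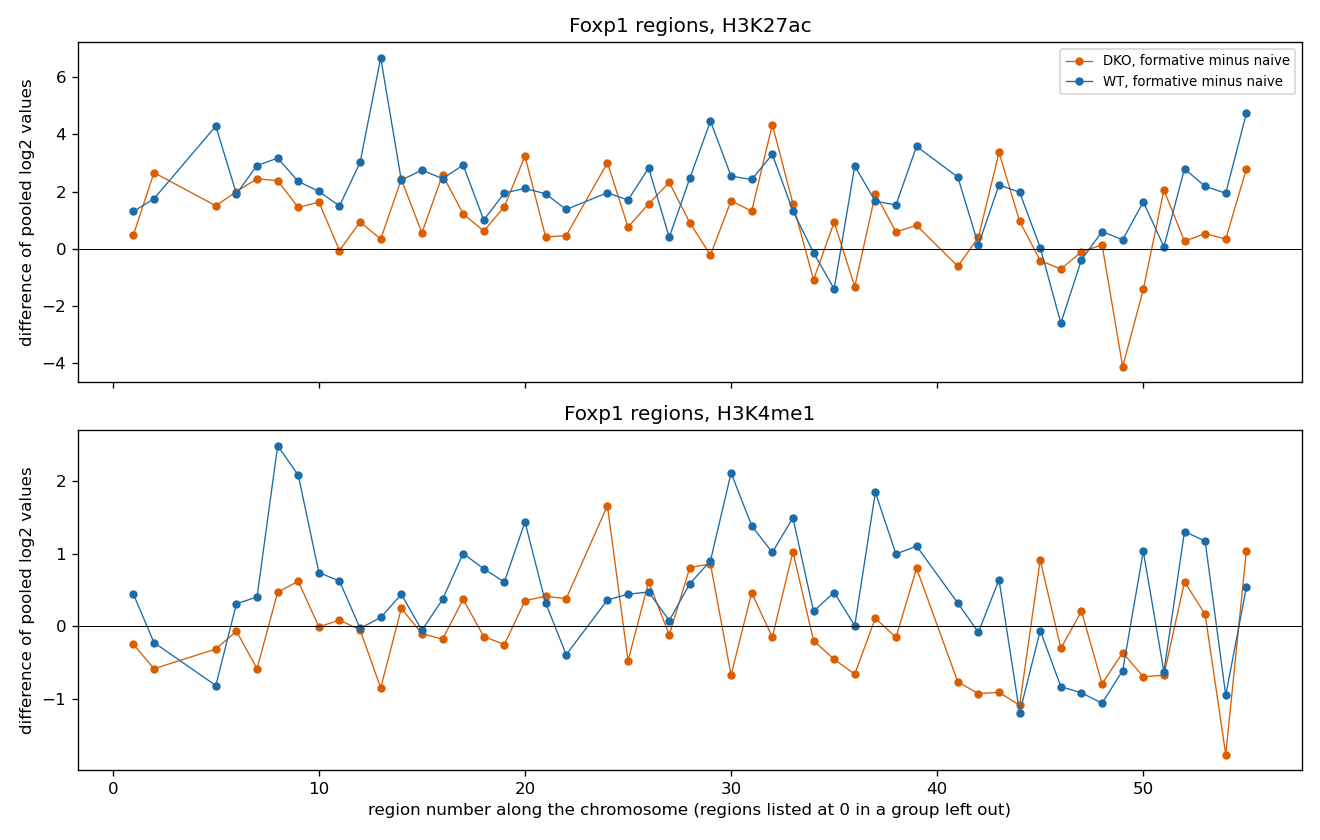
State difference (formative minus naive) of pooled log2 H3K27ac (top) and of the authors' H3K4me1 (bottom) at the Foxp1 regions in their order along the chromosome, for DKO and WT cells. The H3K27ac difference in WT cells reaches 6.68, most WT points lie above 0, and DKO points mostly lie between them and 0.

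Each of the other FOXP genes had regions that rose in formative WT cells as well. The class of 4 genes had 32 of 73 regions that rose and 2 that fell, beside 20.8% and 15.8% of all regions. Foxp1 alone held 24 of those that rose and the 2 that fell. At Foxp2, a gene of motor and vocal circuits, the promoter region chr6:14899782-14901640 had 5.74 in formative DKO, 8.0 in formative WT, 6.51 in naive DKO and 2.83 in naive WT cells, and it rose in WT cells, with a log2 fold of 5.44 by DiffBind in the authors' deposited table, adjusted p = 1.95e-10. Naive WT was the only low group, and the state difference in DKO cells had the opposite sign. Inside the gene, chr6:14928814-14929530 had 5.95 in formative DKO, 8.58 in formative WT, 7.66 in naive DKO and 4.62 in naive WT cells, in the same order of groups. Foxp2 RNA was low throughout, at 0.45 in formative DKO, 0.29 in formative WT, -1.72 in naive DKO and -1.91 in naive WT cells in the authors' deposited table.

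Foxp3, the defining factor of regulatory T cells, had a single intronic region on the X chromosome with 6.39 in formative DKO, 8.36 in formative WT, 3.90 in naive DKO and 2.23 in naive WT cells, and it rose in WT cells, with a log2 fold of 6.49 by DiffBind in the authors' deposited table, adjusted p = 2.47e-05. Foxp4, which acts in lung and heart development, had 5 regions that rose of 14 and 0 that fell. Its promoter region had 8.05 in formative DKO, 7.33 in formative WT, 8.10 in naive DKO and 8.03 in naive WT cells and did not pass the test (a log2 fold of -0.62 by DiffBind in the authors' deposited table, adjusted p = 0.323), so the gains were inside the gene. One of them, chr17:47893620-47894252, had 7.58 in formative DKO, 9.09 in formative WT, 7.99 in naive DKO and 4.58 in naive WT cells, and naive DKO was above naive WT at 13 of the 14 Foxp4 regions. Foxp4 RNA was 3.09 in formative DKO, 3.43 in formative WT, 3.66 in naive DKO and 4.11 in naive WT cells in the authors' deposited table.

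Among the FOXO genes, effectors of insulin and stress signalling, 9 of 49 regions rose and 5 fell, and all 5 that fell were at Foxo3. Foxo1, known to sustain pluripotency genes, had 6 regions that rose of 23 and 0 that fell. Next to its TSS chr3:52269788-52270706 had 8.60 in formative DKO, 7.92 in formative WT, 8.67 in naive DKO and 8.44 in naive WT cells, which did not pass the test (a log2 fold of -0.53 by DiffBind in the authors' deposited table, adjusted p = 0.741). The gains lay inside the gene, where chr3:52317823-52320326 had 6.20 in formative DKO, 7.64 in formative WT, 5.84 in naive DKO and 4.66 in naive WT cells, with a log2 fold of 3.01 by DiffBind in the authors' deposited table, adjusted p = 0.00011. Naive DKO was above naive WT at 19 of the 23 regions, and the median state difference was 0.36 in DKO and 1.84 in WT cells. The region chr3:52316125-52317052 had 4.70 in formative DKO, 8.74 in formative WT, 8.10 in naive DKO and 7.43 in naive WT cells, where formative DKO alone was low. Foxo1 RNA was 5.64 in formative DKO, 5.74 in formative WT, 4.75 in naive DKO and 4.57 in naive WT cells in the authors' deposited table, with little difference between DKO and WT cells.

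Foxo3, which drives stress-resistance genes, had 5 regions that fell and 1 that rose of 23. The pooled values did not lean the same way. Of its 22 regions above 0, 6 were at least 2-fold higher in formative than naive WT cells and 4 lower. Their median state difference was -0.14 in DKO and 0.17 in WT cells. Its promoter region, chr10:42275882-42278523, had 8.49 in formative DKO, 7.02 in formative WT, 8.74 in naive DKO and 7.78 in naive WT cells and fell by little in WT cells, with a log2 fold of -0.81 by DiffBind in the authors' deposited table, adjusted p = 0.0145. The intronic region chr10:42245388-42248649 had 6.32 in formative DKO, 6.05 in formative WT, 8.48 in naive DKO and 8.05 in naive WT cells, with a log2 fold of -2.07 by DiffBind in the authors' deposited table, adjusted p = 6.09e-16. Both formative groups were low there and both naive groups high, the same order in DKO and WT cells. The region that rose, chr10:42338157-42338975, lies in a neighbouring gene, Afg1l, and was listed at 0 in formative DKO cells, against 8.94 in formative WT, 7.47 in naive DKO and 4.73 in naive WT cells. A further intronic region, chr10:42205902-42207089, had 4.20 in formative DKO, 8.23 in formative WT, 7.13 in naive DKO and 5.82 in naive WT cells. Foxo3 RNA was 6.28 in formative DKO, 6.63 in formative WT, 6.0 in naive DKO and 6.17 in naive WT cells in the authors' deposited table.

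Foxo4 and Foxo6 had few regions. The Foxo4 promoter region on the X chromosome had 5.90 in formative DKO, 6.63 in formative WT, 7.42 in naive DKO and 7.30 in naive WT cells and did not pass the test (a log2 fold of -0.40 by DiffBind in the authors' deposited table, adjusted p = 0.541), while the upstream region chrX:101244625-101245516 had 5.42 in formative DKO, 8.84 in formative WT, 6.19 in naive DKO and 7.03 in naive WT cells and rose (a log2 fold of 1.88 by DiffBind in the authors' deposited table, adjusted p = 0.0282). Its RNA was 4.98 in formative DKO, 6.47 in formative WT, 4.25 in naive DKO and 5.09 in naive WT cells in the authors' deposited table, lower in DKO cells of both states. The Foxo6 region was listed at 0 in naive DKO cells, with 6.84 in formative DKO, 8.22 in formative WT and 5.02 in naive WT cells. Foxo6 RNA ran against this gain in WT cells, at 1.41 in formative DKO, 2.05 in formative WT, 3.11 in naive DKO and 3.42 in naive WT cells in the authors' deposited table.

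Foxk1 and Foxk2 encode repressors of autophagy genes that also promote glycolysis. At Foxk1, 7 of 14 regions rose and 0 fell. The promoter region had 8.56 in formative DKO, 8.66 in formative WT, 8.61 in naive DKO and 7.31 in naive WT cells and did not pass the test (a log2 fold of 1.38 by DiffBind in the authors' deposited table, adjusted p = 0.181), whereas the broad intronic region chr5:142414226-142420077 had 5.75 in formative DKO, 6.73 in formative WT, 5.62 in naive DKO and 4.72 in naive WT cells and rose, with a log2 fold of 2.08 by DiffBind in the authors' deposited table, adjusted p = 5.86e-11. Naive DKO was at least 2-fold above naive WT at 9 Foxk1 regions and below WT by that much at 0, and the median state difference was -0.10 in DKO and 1.92 in WT cells. At Foxk2, 2 regions rose and 1 fell of 12. The Foxk2 promoter region had 9.87 in formative DKO, 8.88 in formative WT, 9.73 in naive DKO and 9.75 in naive WT cells and did not pass the test (a log2 fold of -1.06 by DiffBind in the authors' deposited table, adjusted p = 0.484). Its intronic region chr11:121293106-121293738 had 8.60 in formative DKO, 9.14 in formative WT, 7.88 in naive DKO and 2.88 in naive WT cells, and the naive DKO excess over naive WT, 5.0, was the largest among Fox regions above 0 in all groups. Foxk2 RNA was 4.87 in formative DKO, 4.77 in formative WT, 5.23 in naive DKO and 4.53 in naive WT cells in the authors' deposited table.

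Foxn2 and Foxn3 belong to one subfamily and moved in opposite directions. At Foxn2, 5 of 12 regions fell and 0 rose. The broad intronic region chr17:88465318-88470957 had 4.71 in formative DKO, 5.03 in formative WT, 5.84 in naive DKO and 7.78 in naive WT cells, with a log2 fold of -2.77 by DiffBind in the authors' deposited table, adjusted p = 4.64e-37, the smallest adjusted p of any Fox region. Naive DKO lay between the naive WT level and the formative levels. The region at the start of the gene, chr17:88440072-88442364, had 7.82 in formative DKO, 7.13 in formative WT, 8.51 in naive DKO and 9.03 in naive WT cells and also fell, with a log2 fold of -1.99 by DiffBind in the authors' deposited table, adjusted p = 2.39e-05. Just downstream, chr17:88442802-88443865 had 7.57 in formative DKO, 5.23 in formative WT, 7.40 in naive DKO and 8.78 in naive WT cells, where only formative WT cells were low. The narrow region chr17:88463940-88464675 had 5.66 in formative DKO, 4.75 in formative WT, 7.95 in naive DKO and 9.54 in naive WT cells, and the upstream chr17:88373918-88374600 had 5.29 in formative DKO, 8.56 in formative WT, 8.81 in naive DKO and 7.48 in naive WT cells. In DKO cells 8 Foxn2 regions were at least 2-fold lower in the formative state and 0 were higher, and in WT cells 8 were lower and 1 was higher. Foxn2 RNA was 2.83 in formative DKO, 2.68 in formative WT, 3.24 in naive DKO and 3.65 in naive WT cells in the authors' deposited table.

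Foxn3, a checkpoint-linked repressor, had 10 regions that rose of 23 and 0 that fell, and all 23 lie inside the gene. Nearest the TSS, chr12:99448952-99449728 had 6.51 in formative DKO, 8.32 in formative WT, 4.94 in naive DKO and 7.60 in naive WT cells and did not pass the test (a log2 fold of 0.78 by DiffBind in the authors' deposited table, adjusted p = 0.636). The clearest gain, at chr12:99415167-99416081, had 6.73 in formative DKO, 9.04 in formative WT, 7.19 in naive DKO and 4.36 in naive WT cells, with a log2 fold of 3.46 by DiffBind in the authors' deposited table, adjusted p = 5.1e-05. Formative DKO was below formative WT at 22 of the 23 regions, by 2-fold or more at 10. Foxn3 RNA was 6.77 in formative DKO, 7.13 in formative WT, 5.56 in naive DKO and 5.87 in naive WT cells in the authors' deposited table.

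The remaining genes of this class had 1 to 3 regions. Foxm1, which drives mitotic genes, had 1 region with 7.38 in formative DKO, 7.08 in formative WT, 7.87 in naive DKO and 6.57 in naive WT cells that did not pass the test (a log2 fold of 0.69 by DiffBind in the authors' deposited table, adjusted p = 0.495), and its RNA was 5.48 in formative DKO, 5.44 in formative WT, 5.87 in naive DKO and 5.22 in naive WT cells in the authors' deposited table. Foxn1, the thymic epithelial factor, had 1 of 3 regions that rose, chr11:78373292-78374725, with 6.12 in formative DKO, 7.89 in formative WT, 1.97 in naive DKO and 5.87 in naive WT cells. Naive DKO was 3.90 below naive WT there, the largest such shortfall among Fox regions above 0 in all groups. Foxr1 had 7.16 in formative DKO, 8.26 in formative WT, 6.23 in naive DKO and 6.71 in naive WT cells at a region that did not pass the test. The Foxr2 region at its TSS had 3.47 in formative DKO, 7.67 in formative WT, 4.21 in naive DKO and 8.0 in naive WT cells, low in DKO cells of both states. It did not pass the test (a log2 fold of -0.18 by DiffBind in the authors' deposited table, adjusted p = 0.755). The other Foxr2 region, chrX:153108808-153109393, rose (a log2 fold of 5.88 by DiffBind in the authors' deposited table, adjusted p = 0.00048). Foxr2 RNA was -1.15 in formative DKO, 1.37 in formative WT, -1.93 in naive DKO and -1.78 in naive WT cells in the authors' deposited table.

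Of the FOXJ genes, Foxj1, the master factor of motile cilia, had 6 regions that rose of 10 and 0 that fell. Most of them, 7, lie in the neighbouring gene Rnf157. Nearest the TSS, chr11:116338611-116339810 had 6.52 in formative DKO, 7.79 in formative WT, 6.86 in naive DKO and 4.42 in naive WT cells. The clearest gain, at chr11:116347680-116348651, had 6.99 in formative DKO, 8.84 in formative WT, 7.03 in naive DKO and 5.51 in naive WT cells, with a log2 fold of 3.20 by DiffBind in the authors' deposited table, adjusted p = 3.06e-05. Another, chr11:116373771-116374249, had 6.27 in formative DKO, 9.66 in formative WT, 6.05 in naive DKO and 4.19 in naive WT cells, with a log2 fold of 5.72 by DiffBind in the authors' deposited table, adjusted p = 0.000871, and formative WT was the only high group in both. The median state difference was 0.22 in DKO and 2.77 in WT cells. Foxj1 RNA was 2.77 in formative DKO, 1.70 in formative WT, 0.84 in naive DKO and -0.94 in naive WT cells in the authors' deposited table, higher in DKO cells of both states. The median H3K27ac difference of DKO against WT over Foxj1 regions was -1.76 in formative and 1.14 in naive cells. RNA and acetylation thus differed in direction in the formative state only.

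Foxj3 behaved otherwise. Its promoter region had 8.12 in formative DKO, 5.91 in formative WT, 8.68 in naive DKO and 8.55 in naive WT cells, with a log2 fold of -2.28 by DiffBind in the authors' deposited table, adjusted p = 0.000493, and 4 of its 6 regions, all near the TSS end of the gene, fell. In DKO cells the promoter value differed little between states, and formative DKO exceeded formative WT by 2.21. The region chr4:119553518-119554605 had 8.90 in formative DKO, 6.60 in formative WT, 9.26 in naive DKO and 8.89 in naive WT cells, a like order. The 2 regions farthest from the TSS differed from these, and at chr4:119586070-119587037 the levels were 6.21 in formative DKO, 8.69 in formative WT, 7.74 in naive DKO and 6.18 in naive WT cells. At Foxj2, 1 of 8 regions rose and 0 fell, and 4 lie in the neighbouring glucose transporter gene Slc2a3. The region at its TSS had 10.09 in formative DKO, 7.82 in formative WT, 9.05 in naive DKO and 8.40 in naive WT cells and did not pass the test, and formative DKO exceeded formative WT by 2.26. Foxj2 RNA was 3.19 in formative DKO, 2.60 in formative WT, 2.85 in naive DKO and 2.42 in naive WT cells in the authors' deposited table.

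Genes of the endoderm, mesoderm, neural crest and ectoderm had few regions each. Foxa1, a pioneer factor of endoderm, had 1 region with 5.68 in formative DKO, 6.62 in formative WT, 6.70 in naive DKO and 8.97 in naive WT cells that fell in WT cells (a log2 fold of -2.41 by DiffBind in the authors' deposited table, adjusted p = 0.0279), although its RNA was 1.52 in formative DKO, 0.62 in formative WT, -1.02 in naive DKO and -2.08 in naive WT cells in the authors' deposited table. Foxa3, a liver regulator, had 7.35 in formative DKO, 9.33 in formative WT, 5.77 in naive DKO and 8.47 in naive WT cells at a region that did not pass the test, lower in DKO cells of both states. The 5 listed mesoderm, vascular and neural crest genes with regions held 17, of which 7 rose and 4 fell. Foxc1, a gene of head mesenchyme and vessels, had a distal region, chr13:31728255-31729877, with 4.74 in formative DKO, 4.18 in formative WT, 5.49 in naive DKO and 8.61 in naive WT cells that fell (a log2 fold of -4.51 by DiffBind in the authors' deposited table, adjusted p = 2.68e-18), and a region nearer its TSS that was listed at 0 in naive WT cells and had 8.70 in formative DKO, 9.25 in formative WT and 4.52 in naive DKO cells.

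Foxf2, a gene of gut and palate mesenchyme, had 3 regions that fell of 4. The clearest, chr13:31669806-31672653, had 5.64 in formative DKO, 5.75 in formative WT, 7.51 in naive DKO and 8.14 in naive WT cells (a log2 fold of -2.52 by DiffBind in the authors' deposited table, adjusted p = 7.07e-14), and all 4 were at least 2-fold lower in formative than naive DKO cells. Foxl1, a gene of gut mesenchyme on chromosome 8, had 4 regions that rose of 8. One of these, chr8:121185415-121185939, had 7.36 in formative DKO, 9.57 in formative WT, 3.64 in naive DKO and 4.16 in naive WT cells. The region chr8:121211764-121212598 did not pass the test (a log2 fold of 1.87 by DiffBind in the authors' deposited table, adjusted p = 0.311). It had 6.22 in formative DKO, 8.41 in formative WT, 2.78 in naive DKO and 6.32 in naive WT cells. Both regions had higher pooled values in the formative state in DKO and WT cells. Foxl1 was the only gene of 3 or more regions above 0 whose median was at least 2-fold higher in formative DKO cells than in naive DKO cells. The Foxl1 region nearest its TSS was listed at 0 in naive DKO cells and had 2.96 in formative DKO, 8.78 in formative WT and 7.59 in naive WT cells. Foxq1, a hair-shaft gene, had 1 region with 7.95 in formative DKO, 8.51 in formative WT, 8.81 in naive DKO and 4.16 in naive WT cells that rose in WT cells (a log2 fold of 3.62 by DiffBind in the authors' deposited table, adjusted p = 0.0222), and again naive WT alone was low. Foxs1 had a region near its gene end with 1.63 in formative DKO, 8.18 in formative WT, 5.09 in naive DKO and 6.51 in naive WT cells. Formative DKO was 6.55 below formative WT there, the largest such shortfall among Fox regions above 0 in all groups. That region did not pass the test (a log2 fold of 1.37 by DiffBind in the authors' deposited table, adjusted p = 0.49). The other Foxs1 region, chr2:152924731-152925413, rose (a log2 fold of 6.26 by DiffBind in the authors' deposited table, adjusted p = 7.15e-05).

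Neural and ectodermal genes with regions, 5 in number, held 11, of which 6 rose and 0 fell. Foxn4, a gene of retinal and spinal interneurons, had 3 regions that rose of 4. The region nearest the TSS, chr5:114267556-114268245, was not one of them (a log2 fold of 2.41 by DiffBind in the authors' deposited table, adjusted p = 0.154). It had 6.59 in formative DKO, 8.95 in formative WT, 6.03 in naive DKO and 4.10 in naive WT cells. Foxn4 RNA was -0.23 in formative DKO, 1.25 in formative WT, 1.53 in naive DKO and 0.12 in naive WT cells in the authors' deposited table. The region nearest the TSS of Foxe1, a thyroid gene, had 6.89 in formative DKO, 9.52 in formative WT and 7.96 in naive DKO cells and was among the 11 Fox regions listed at 0 in naive WT cells. Formative DKO cells had 8 Fox regions at 0, formative WT cells 0 and naive DKO cells 6, so that in all 21 of the 268 were left out of the pooled comparisons. Foxb1, Foxi2 and Foxo6 had no other region. Foxb1, a diencephalon gene, was listed at 0 in formative DKO cells and had 9.80 in formative WT, 7.88 in naive DKO and 4.77 in naive WT cells. Foxi1, an inner ear and kidney gene, had no called region of 3, and 2 lie in the neighbouring gene Dock2.

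A change of direction with genotype was seen at 16 Fox regions (6.48%) that were at least 2-fold higher in the formative state in WT and at least 2-fold lower in DKO cells or the reverse, close to the 6.82% of all regions. All 16 were higher in formative than naive WT cells and lower in formative than naive DKO cells. They belonged to Foxi3, Foxj3, Foxk1, Foxk2, Foxn2, Foxn4, Foxo1, Foxo3, Foxp1, Foxp2, Foxp4 and Foxs1. How such regions split by direction over the whole set was not computed. Over all regions, more were higher (38.1%) than lower (18.9%) in formative than naive WT cells. By position, the 7 promoter regions had a median formative DKO against WT difference of 0.71 (0.79 over all promoter regions), the 170 intronic ones -1.10 (-0.62 over all) and the 59 intergenic ones -0.55 (-1.0 over all).

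H3K4me1, the monomethylation that MLL3 and MLL4 place at enhancers, was read at the same regions from the authors' deposited table, which took it from libraries outside the series. In naive cells 9 Fox regions were at least 2-fold higher in DKO than WT (background 4.59%) and 40 lower (background 18.9%), with a median difference of -0.21 beside -0.31 over all regions. In formative cells 17 were higher (background 10.5%) and 51 lower (background 15.5%), with a median of -0.36 beside -0.01. Between states 20 were higher in formative than naive WT cells (background 5%) and 22 lower (background 15.7%), and in DKO cells 5 were higher (background 2.48%) and 8 lower (background 2.63%). At Foxd3 the broad region chr4:99634849-99639357 had H3K4me1 of 3.38 in formative DKO, 4.77 in formative WT, 4.21 in naive DKO and 5.04 in naive WT cells. The Foxn2 region chr17:88465318-88470957 had 2.89 in formative DKO, 3.55 in formative WT, 2.96 in naive DKO and 4.41 in naive WT cells. The Foxp2 promoter had more H3K4me1 in DKO cells, with 6.76 in formative DKO, 6.08 in formative WT, 6.73 in naive DKO and 5.93 in naive WT cells.

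The marks were compared region by region. Across the 247 Fox regions the H3K4me1 and H3K27ac differences correlated at r = 0.20 for formative DKO against WT and at 0.16 for naive DKO against WT (0.23 and 0.27 over all regions), where the marks share regions but no libraries. The 51 Fox regions at least 2-fold lower in H3K4me1 in formative DKO cells had a median H3K27ac difference of -0.81, and the 179 within 2-fold had -1.10. Over all regions these were -1.23 and -0.57.

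RNA levels were given for 23 of the 34 Fox genes. In WT cells 12 were at least 2-fold higher in the formative state (background 17.1%) and 1 was lower (background 9.65%), in the authors' deposited table. In DKO cells 9 were higher (background 18%) and 2 lower (background 5.15%). Between genotypes, 2 of the 23, Foxc1 and Foxj1, were higher in formative DKO than WT cells (background 5.87%) and 4 lower, Foxb1, Foxn4, Foxo4 and Foxr2 (background 5.05%). In naive cells 5 were higher in DKO (background 8.54%), Foxa1, Foxc1, Foxj1, Foxn4 and Foxq1, and 2 lower, Foxd3 and Foxr1 (background 11.2%). No error is given with these levels, and no test was made. Many of the calls rest on low levels. Of the 12 genes higher in formative WT cells, all but Foxn3, Foxo1, Foxo4 and Foxp1 had naive WT levels from -2.29 to 0.12. All 5 genes higher in naive DKO cells had naive WT levels from -2.08 to 0.12. In 2 further genotypes, which the file abbreviates CKO and dCD, formative Foxd3 RNA was 4.22 in CKO and 5.46 in dCD cells, and naive Foxd3 RNA 4.91 in CKO and 4.86 in dCD cells. Formative Foxp1 RNA was 6.81 in CKO and 7.53 in dCD cells, beside 4.41 and 4.35 in the naive cells of those genotypes. Foxo1 RNA was 5.31 in formative CKO, 5.26 in naive CKO, 5.43 in formative dCD and 5.36 in naive dCD cells. Its state difference in WT cells was thus nearly absent in CKO and dCD cells. In CKO cells 4 of the 23 genes were lower than in WT in the formative state, Foxa1, Foxb1, Foxd3 and Foxn4 (background 4.78%), and 1 was higher, Foxc1 (background 3.64%). In dCD cells 2 were lower, Foxe1 and Foxn4 (background 3.62%), and 0 were higher (background 4.72%).

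**Figure D5:**
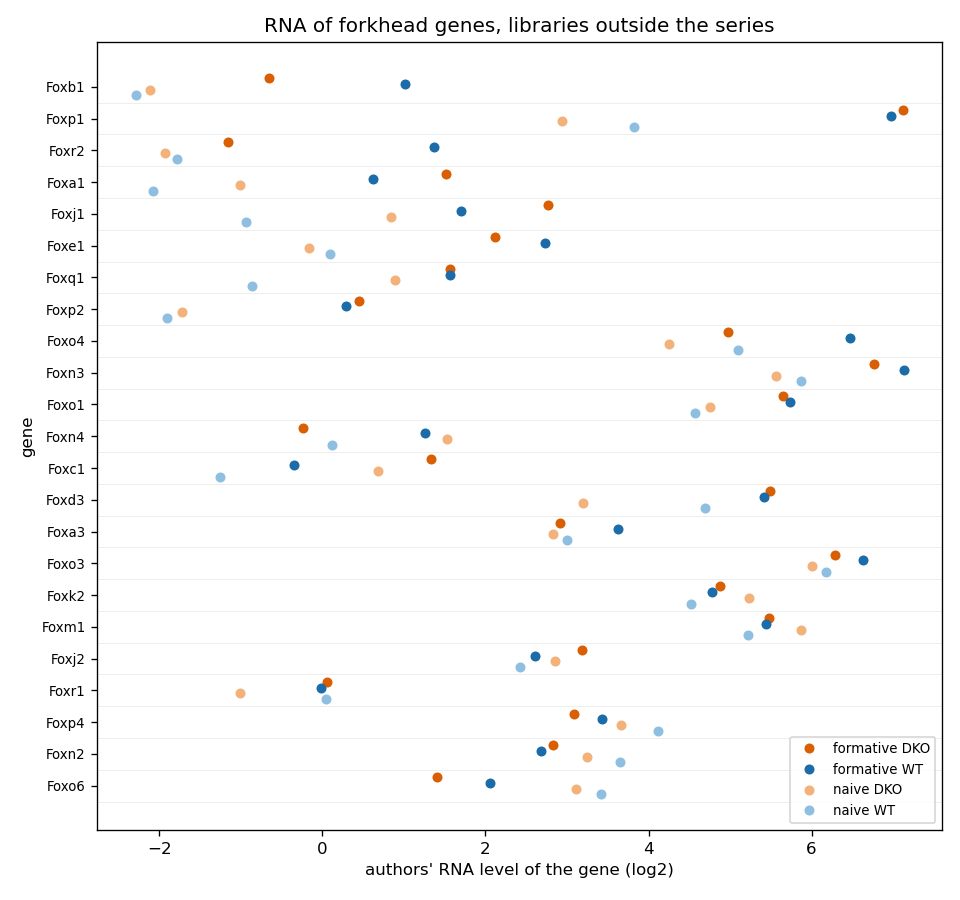
Authors' log2 RNA level of the 23 Fox genes with values, for formative DKO, formative WT, naive DKO and naive WT cells, ordered by the WT state difference; the unit under the log is not stated, so levels are read along a row only. Foxp1 formative levels (7.12 in DKO, 6.98 in WT) stand far above the naive levels (2.94 in DKO, 3.82 in WT), and Foxo6 shows the opposite order.

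Genes of the pathways around these factors were read in the same way. Of the 22 FOXO and PI3K-AKT genes, all with regions, 9 had regions that only rose in WT cells, 6 regions that only fell, 5 both and 2 neither, and 47 of their 188 regions rose and 30 fell. Igf1r, the receptor at the head of the pathway, had 7 regions that rose of 15 and 1 that fell, Bcl2l11, a pro-apoptotic FOXO target, had 11 of 16 that rose, and Klf2, a naive-state FOXO target, had 10 of 16 that fell. Of the 14 FOXH1 and Nodal genes, 7 had regions that only rose, 2 only fell, 2 both and 3 neither. Of the 99 regions of these genes, 25 rose and 7 fell. Smad3, a FOXH1 partner, had 10 of 28 that rose, and Nodal itself had 3 of 12 that fell. Of the 10 FOXA and endoderm genes 9 had regions, with 6 of 18 regions that rose and 0 that fell. These counts are by DiffBind in the authors' deposited table. The counts of regions stand beside the 20.8% of all regions that rose and the 15.8% that fell. For the counts of genes no share over all genes was computed.

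Most marker genes followed the state labels in WT cells, with Otx2 as an exception. At 5 naive markers (Klf4, Esrrb, Zfp42, Tbx3, Tfcp2l1) 46 of 74 regions fell and 4 rose, and the median of their gene medians of the state difference was -1.68 in DKO and -2.93 in WT cells. At 5 formative markers (Otx2, Fgf5, Pou3f1, Dnmt3b, Lef1) 21 of 39 regions rose, at the other 4 genes, and the 2 that fell were both at Otx2, which has 3. The median of the 4 formative gene medians, Fgf5 having none, was 1.24 in DKO and 1.97 in WT cells, and that of Otx2 alone 0.86 in DKO and -1.43 in WT cells. Regions at markers of other cell types were also called, beside the 20.8% and 15.8% of all regions: 11 of 23 primitive endoderm regions rose and 0 fell, of which Lamb1 alone held 16 and 9 of those that rose, while Pdgfra and Sox17 had none that rose. Of the mesendoderm regions 5 of 16 rose and 2 fell, and of 6 fibroblast feeder genes 4 had regions, 4 of 12 rising and 2 falling. Their part in the Fox results was not tested. RNA of the genes knocked out in DKO cells was lower there but not lost: Kmt2c was at 4.30 in formative DKO, 5.21 in formative WT, 4.46 in naive DKO and 5.61 in naive WT cells, and Kmt2d at 4.31 in formative DKO, 5.16 in formative WT, 4.13 in naive DKO and 4.86 in naive WT cells, in the authors' deposited table. These whole-gene levels need not read the deleted part.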

How the data were processed

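CUT&Tag for H3K27ac was done on 8 libraries, 2 in each of 4 groups, and 1 table with 47 columns was deposited by the authors. The build, mm10, and DiffBind, deepTools, SEACR, Bowtie2 and Trim Galore are named per the submitters' processing notes. No source used here gives a version, role or setting for them. The H3K27ac columns deposited by the authors are log2 values, log2(value + 1), 1 per group with libraries pooled, and the scaling between groups is not stated. Deposited log2 folds equal differences of these columns. The level fell about as the square of region width at equal read concentration (fitted exponent -2.00 in formative WT and -1.98 in naive WT cells), so levels were compared within a region only. DiffBind p-values and Benjamini-Hochberg adjusted p-values deposited by the authors compare formative with naive WT cells over all 112137 regions. Region width and distance to the TSS are other values deposited by the authors. Coordinates are printed as the file gives them, since it does not say whether they count from 0 or 1. H3K4me1 and RNA columns come from libraries outside the series, and their log2 levels were deposited by the authors with no error. The depth per library is unknown, so no counting interval is given.

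Pooled columns allowed no test that involves DKO cells. Regions above 0 in all 4 groups were compared by log2 difference and called at 1 (2-fold), and DiffBind calls used adjusted p under 0.05, both across all regions. Every Fox gene is named. Values in all groups are given for the promoter or nearest region of genes with 5 or more regions or with RNA values, for regions with the largest differences per comparison and for those with the smallest adjusted p. Other regions shown were picked after their values were seen. The members and gene lists were chosen with earlier results of these data known. Promoters and genome sequence are RefSeq GRCm38 (mm10), and all 32851 promoter sequences matched the genome at their coordinates. Python 3.11.15, pandas 2.3.3, numpy 2.4.6, scipy 1.17.1 and matplotlib 3.10.9 were used, and the code was tested on simulated data. Alternatives tried were quantile normalization, centring on the median of all or of promoter regions, signal, distance and threshold limits.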

Additional observations from a re-analysis of the deposited data

How the results depend on the processing

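Of the summary values recomputed, 109 stayed within the set margin and 34 moved. Formative DKO against WT was the comparison most dependent on scaling. Its Fox median was -0.025 with quantile normalization, -0.32 centred on all regions, -1.74 centred on promoter regions, -0.17 centred on each chromosome and -0.21 for regions above the median signal. Its share of regions at least 2-fold higher was 20.6%, 14.2%, 2.43%, 16.2% and 9.92% under these settings, 11.8% within 20 kb and 2.83% at a log2 difference of 1.5. The share at least 2-fold lower was 23.9% with quantile normalization, 30.8% centred on all regions, 27.1% centred on each chromosome and 20.7% above the median signal. The DKO minus WT difference of state change had a median of 0.0029 with quantile normalization, with 26.7% higher and 25.9% lower. Formative against naive WT by pooled values had a median of 0.47 with quantile normalization and 0.40 above the median signal. Its share lower was 23.5% with quantile normalization, 21.5% centred on all regions and 22.3% above the median signal, and its share higher 36.4% above the median signal. The DiffBind share that fell was 19.8% above the median signal and 17.0% within 20 kb, and pooled values in place of DiffBind called 54.7% higher. The state difference in DKO cells had 9.09% higher above the median signal, 13.1% higher without chromosome 6 and 10.5% lower at a log2 difference of 1.5. Naive DKO against WT had 12.1% higher and 41.3% lower centred on promoter regions, and 14.6% lower at a log2 difference of 1.5. Among single genes, the Foxm1 median of the difference of state change turned to 0.043 with quantile normalization. Summed over 4 scalings, with a gene's median counted once under each scaling and comparison, 449 of the other values kept their call, 42 gained one and 35 lost one. The cause of these moves was not tested. Leaving out chromosome 6 or Foxp1 and centring on each chromosome were chosen after seeing the data. No paired analysis was possible because each group has 1 pooled column, and for the same reason no replicate could be left out. The unknown depth limits all regions with low values, which include several of those with the largest differences.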
